A study of Homo sapiens with 24 samples.

Results

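Histone genes were taken from the count table by their symbols, covering the linker histone H1, the core histones H2A, H2B, H3 and H4, and the variants H2A.X, H2A.Z, H2A.J, macroH2A and H3.3. Of 79 such genes among the 54583 in the table, 42 had no count of 0 in any library and are the members described here. They were 34 of 67 replication-dependent genes and 8 of 12 variant genes. The replication-dependent members were 4 H1, 10 H2A, 8 H2B, 7 H3 and 5 H4 genes, and the variants included H2AJ, H2AX, H2AZ1, H2AZ2, MACROH2A1, H3-3A and H3-3B. The filter on zeros removed 37 genes, and it could remove well-counted ones, since H4C11 and H4C12 had medians of 131.5 and 130.5 counts with 1 library at 0.

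The cells were PANC-1, an established human line from a ductal carcinoma of the pancreas. Cultures were treated for 6 h with DMSO, the vehicle, with 40 µM CID661578 or with 5 µM cercosporamide, with 4 replicates of each treatment. The labels call both compounds MNK2 inhibitors. Cercosporamide inhibits the activity of this kinase, whereas the study describes CID661578 as a compound that binds MNK2 without acting on its kinase activity. The labels give no genetic change in any group, and each replicate was a culture plate of the same line. Total cytosolic RNA and RNA from polysomes with more than 3 ribosomes were sequenced from every plate, which gave 24 Smart-seq2 libraries. The labels name RPMI and the methods name DMEM as the medium.

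Replication-dependent histone genes supply the histones that package newly made DNA, and their mRNAs accumulate in S phase. Their mRNAs end in a conserved stem-loop in place of a poly(A) tail, and the stem-loop binding protein SLBP takes part in their processing, translation and decay. Variant histones are mostly made from polyadenylated mRNAs throughout the cell cycle and enter chromatin outside replication. Smart-seq2 primes cDNA with oligo-dT, so an mRNA without a poly(A) tail is expected to be captured poorly, and the part of this in the levels below was not tested.

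The stem-loop that sets the classes apart was looked for in the 100 bases after the stop codon in GRCh38 (hg38), with GENCODE v44 gene models. It was present in 34 of 34 replication-dependent members and in 1 of 8 variants, H2AX, against 72 of 20033 protein-coding genes (0.359%). The stem-loops of the replication-dependent members had 6 spellings, and 1 example of each is shown with that of H2AX because this element is what the replication-dependent class is known for. Each is written in the direction of the mRNA, as DNA, with the stem and loop in capitals and 5 flanking bases on either side. All lie in 3′ UTRs.

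H3C14: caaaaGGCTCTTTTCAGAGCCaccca

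H2BC12: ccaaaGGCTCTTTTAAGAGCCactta

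H4C3: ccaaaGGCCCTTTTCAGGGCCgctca

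H4C14: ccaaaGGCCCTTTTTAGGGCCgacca

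H2AC11: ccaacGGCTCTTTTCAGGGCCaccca

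H2AC20: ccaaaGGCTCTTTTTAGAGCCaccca

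H2AX: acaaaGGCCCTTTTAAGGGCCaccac

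These sites were at chr1:149840687-149840712 on the minus strand for H3C14, chr6:27146361-27146386 on the minus strand for H2BC12 and chr6:26104312-26104337 on the plus strand for H4C3. Those of H4C14, H2AC11 and H2AC20 were at chr1:149833027-149833052, chr6:27133510-27133535 and chr1:149887386-149887411, all on the plus strand. The site of H2AX was at chr11:119094893-119094918 on the minus strand. The spelling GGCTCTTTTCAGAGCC of H3C14 was shared by 23 of the 34 members, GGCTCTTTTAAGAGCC by 4 H2B genes, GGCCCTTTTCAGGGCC by 3 H4 genes and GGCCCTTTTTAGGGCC by H4C14 and H4C15. The spellings of H2AC11 and H2AC20 were found in 1 member each. The polyadenylation signal AATAAA was in the same 100 bases of 2 of 34 replication-dependent members, 0 of 8 variants and 8.55% of all protein-coding genes. The variants have a median transcript length of 1754.5 bases, so these 100 bases need not reach the transcript end. In the last 50 bases of the transcript, AATAAA was in 4 of 8 variants and 1 of 34 replication-dependent members.

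The replication-dependent members shared further features that did not enter their choice. All 34 have a single exon in the GENCODE v44 models, 26 lie on chromosome 6 and 8 on chromosome 1. The reads were counted on RefSeq models, and 6 of the 34 had a RefSeq span over 1000 bases. The part of longer transcripts in their counts was not tested, and the lengths and GC contents here are those of GENCODE. Their median coding length was 393 bases (312 to 681), against 1386 for all genes tested, and their median transcript GC content was 58.2% (47.9% to 65.3%), against 47.5%. The variants had a median coding length of 411 bases and a median GC content of 47.9%. Of the 42 members, 21 encode a protein that another member also encodes. H3C14 and H3C15, H2AC18 and H2AC19, and H4C14 and H4C15 have the same coding sequence. The counts of H3C14 and H3C15 differed by at most 5 in any library and those of H2AC18 and H2AC19 by at most 6, so each of these pairs is close to 1 measurement, while H4C14 and H4C15 differed by up to 131 counts.

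The libraries held 9268041 to 12184749 reads on genes, apart from the polysome library of replicate 4 with cercosporamide, which held 1592459, so that members fell to 1 count there (H4C14). The duct carcinoma keratins KRT8, KRT18 and KRT19 and vimentin (VIM) were high in all 24 libraries, and KRT7 was present at 3.14 to 31.8 CPM, scaled here to the plain library total and elsewhere to the TMM-normalized one. Of 15 markers of acinar, endocrine, blood, endothelial and fibroblast cells, 10 were at 0 in at least 12 libraries, and the highest value of any was 14.0 CPM. In bulk RNA, fewer cells in S phase and less histone mRNA per cell cannot be told apart.

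A single gene dominated the replication-dependent class. H4C3, an H4 gene at chr6:26103933-26104337, stood at 2824, 3690, 3353 and 2112 CPM in the total RNA of the 4 DMSO plates (2994 ± 688, SD, n = 4). It made up 73.6% to 86.2% of the summed CPM of the replication-dependent members in total RNA with DMSO and 50.3% to 72.6% in polysome RNA. Per kilobase of GENCODE transcript, H4C3 was also the highest member, with a mean of 7394 CPM per kb in DMSO total RNA. H2AZ1, which encodes H2A.Z.1, followed with 2038, and H3-3B, which encodes H3.3, with 539. The next on the same scale were H2BC12 with 264, H3-3A with 154 and H2AC20 with 132, a mean that rested on replicate 3, and the lowest was H2BC17 with 1.21. The 33 replication-dependent members other than H4C3 summed to 611, 592, 1204 and 392 CPM in the DMSO total libraries, so the replicates of 1 group differed among themselves, with replicate 3 highest and replicate 4 lowest.

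**Figure D1:**
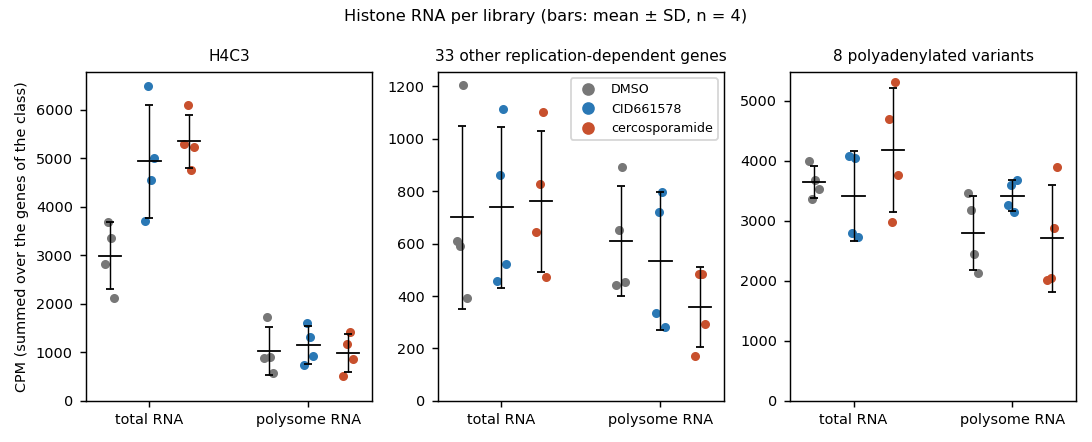
Summed CPM in each library for H4C3, the other 33 replication-dependent genes and the 8 polyadenylated variants, in total and polysome RNA with DMSO, CID661578 or cercosporamide (points are libraries; lines and bars are mean ± SD, n = 4; axes start at 0). H4C3 in total RNA lies above all DMSO libraries with either compound, and it is lower in polysome RNA than in total RNA under every treatment.

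Without a compound, histone mRNAs differed widely in how much of them was on polysomes. Polysome RNA was compared with total RNA of the same plates over the 8 DMSO libraries, with edgeR's quasi-likelihood test, plate as a term, and calls at a Benjamini-Hochberg adjusted p below 0.15 with a change of more than 1.2-fold. Of the 42 members, 6 were higher on polysomes and 11 lower, against 29.8% and 29% of the 12058 genes tested (58.7% in either direction). All 6 that were higher were replication-dependent, and 8 of the 11 lower ones were. The median log2 difference was -0.04 over the replication-dependent members, -0.18 over the variants and 0.03 over all genes tested.

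The H4C3 mRNA was the member lowest in polysome RNA relative to total RNA. Its polysome CPM of 890, 1726, 900 and 575 gave ratios to total RNA of 0.315, 0.468, 0.268 and 0.272 in the 4 DMSO plates. The ratio was thus well below 1 in each plate, with a log2 difference of -1.59 ± 0.17 (SE; adjusted p = 7.54e-10). It was the only 1 of 5 H4 members to be called. Among the H2A and H2B genes, 4 of 10 and 3 of 8 were lower on polysomes and none was higher, with H2AC11 at -1.12 ± 0.36 (adjusted p = 0.00949) and H2BC4 at -0.97 ± 0.27 (adjusted p = 0.00266). The variant mRNAs of H2AZ2 (-0.60 ± 0.19), H2AZ1 (-0.51 ± 0.16) and H2AJ (-0.36 ± 0.19) were also lower.

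Several H3 and H1 mRNAs were higher on polysomes. H3C14 and H3C15, which encode an H3 protein of the H3.2 type, had the highest values of all members, and 4 of 7 H3 and 2 of 4 H1 genes were called higher. For H3C14 the ratio of polysome to total CPM was 1.95, 2.14, 2.37 and 16.9, with 13 counts in the total library of the fourth plate, and all 4 plates were above 1. Its log2 difference was 1.71 ± 0.30 (adjusted p = 1.19e-05), and 1.11 (adjusted p = 0.00145) without replicate 4. H3C2 stood at 1.05 ± 0.34 (adjusted p = 0.0108) and the linker histone gene H1-4 at 0.57 ± 0.23 (adjusted p = 0.0404). Without the plate term, 8 of the 42 members were called, 3 higher and 5 lower, beside 22.9% and 23% of all genes.

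Coding length moved with this measure. Over the 10070 genes tested that have a coding length, log2 coding length and the polysome difference with DMSO correlated with r = 0.637, a description across genes that share libraries. Over the 34 replication-dependent members r was 0.33. When the trend of each library on transcript length was taken out, 25 members were higher and 2 lower, beside 27.7% and 27.1% of all genes. The medians became 0.71 for the replication-dependent members and 0.15 for the variants. H4C3 remained lower on polysomes there (-0.70, adjusted p = 0.0011), whereas H2AJ (0.28) and H2BC12 (0.35) turned positive. The part of length in the differences was not tested further.

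**Figure D2:**
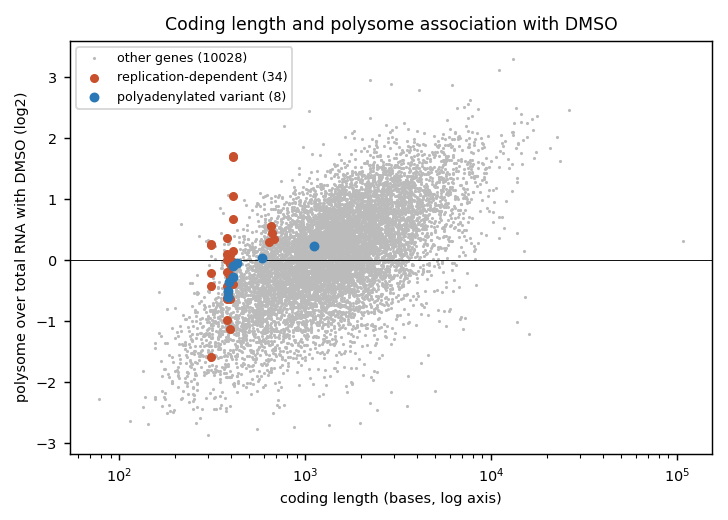
Log2 difference of polysome from total RNA with DMSO (vertical axis) against coding length in bases (horizontal, log axis) for 34 replication-dependent histone genes, 8 variants and 10028 other genes. The histone genes sit at short coding lengths and spread from -1.59 (H4C3) to 1.71 (H3C14).

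The effect of the compounds on translational efficiency (TE) was then asked. The TE change is the log2 change of the ratio of polysome to total RNA with a compound against DMSO, fitted over all 24 libraries with a term for each plate and for each replicate in the polysome fraction. The compounds were given at different doses, and their fits share the DMSO libraries, so their values are set side by side without a correlation between them.

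With cercosporamide, the TE of 24 of the 42 members fell and that of none rose, against 12.6% of all genes tested that fell and 15.8% that rose (28.4% in either direction). The members that fell were 21 of 34 replication-dependent genes and 3 of 8 variants. The fitted value was negative for 40 of 42 members, with H2BC5 (0.05 ± 0.35) among those above 0, and 23 of 34 replication-dependent members and 3 of 8 variants were lower in 4 of 4 plates. The median was -1.08 over the replication-dependent members (-1.59, -1.02, -0.88 and -1.07 in the 4 replicates), -0.37 over the variants and -0.00 over all genes tested. The difference between the classes itself was not tested. The share of all genes lower in 4 of 4 plates was not counted. Nor was the share of all genes whose ratios did not overlap between cercosporamide and DMSO, which is given below for single members only. With the members that encode the same protein summed, 16 of 28 sums or single genes fell, and the share of all genes in that fit is not given here.

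**Figure D3:**
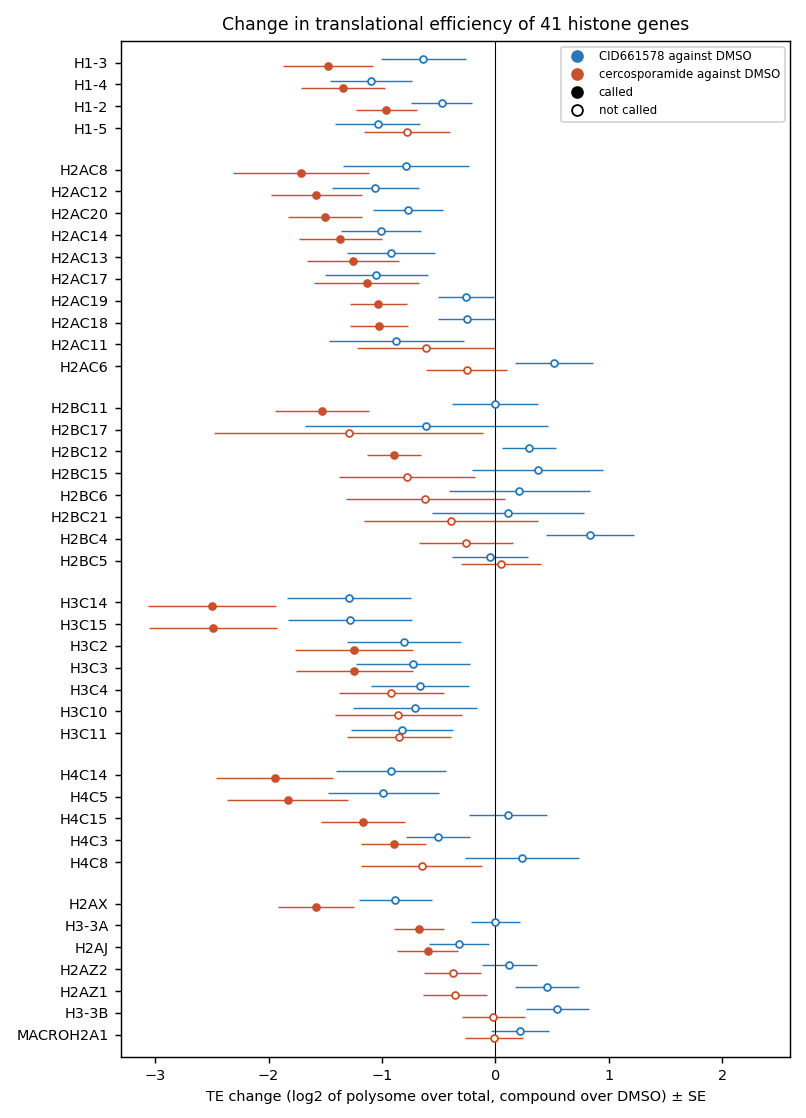
TE change (log2, ± SE, horizontal axis) of 41 of the histone genes with CID661578 and with cercosporamide against DMSO, by family and with the variants last (filled points are called, open points are not). With cercosporamide 24 genes are called, all below 0, and with CID661578 none is called.

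Among the linker histone genes, 3 of 4 replication-dependent H1 members fell. H1-2 had polysome-to-total ratios of 0.937, 1.22, 0.846 and 2.16 with DMSO and of 0.347, 0.812, 0.489 and 1.07 with cercosporamide. Each plate was lower than the DMSO plate of its number, although the ranges overlapped, and the TE change was -0.96 ± 0.27 (adjusted p = 0.0176). H1-3 (-1.48 ± 0.40) and H1-4 (-1.35 ± 0.37) fell as well. H1-5 stood at -0.78 ± 0.38 and was not called (adjusted p = 0.163).

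The H2A genes were the family in which the largest number fell, 8 of 10. H2AC20 had the highest mean CPM of the H2A genes in DMSO total RNA, which rested on replicate 3 (166 CPM), while H2AC19 was higher in the other plates. H2AC20 had ratios of 0.527, 0.905, 0.552 and 1.99 with DMSO and of 0.141, 0.502, 0.274 and 0.337 with cercosporamide. All 4 cercosporamide plates were below all 4 DMSO plates, and the TE change was -1.51 ± 0.33 (adjusted p = 0.003). H2AC12, with -1.58 ± 0.40 (adjusted p = 0.00935), and H2AC19, with -1.03 ± 0.25 (adjusted p = 0.00774), fell too. H2AC6 (-0.25 ± 0.36) and H2AC11 (-0.61 ± 0.61) were not called.

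In the H2B family 2 of 8 genes fell. H2BC12, the most abundant H2B gene, had ratios of 0.607, 0.905, 0.797 and 0.623 with DMSO and of 0.351, 0.585, 0.334 and 0.342 with cercosporamide, again with no overlap. Its TE change was -0.89 ± 0.24 (adjusted p = 0.0128), and that of H2BC11 was -1.53 ± 0.41 (adjusted p = 0.0133). The remaining H2B genes, among them H2BC4 (-0.26 ± 0.42), were not called. Of the 4 genes with the stem-loop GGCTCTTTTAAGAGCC, all H2B, 2 fell, as did 14 of 23 with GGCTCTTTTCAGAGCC.

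Of the 7 H3 and 5 H4 genes, 4 and 4 fell. H3C14 had the largest fall of any member, from the DMSO ratios given above to 0.272, 0.748, 0.856 and 0.393 with cercosporamide. Every cercosporamide plate was below 1 and every DMSO plate above it. The TE change was -2.50 ± 0.56 (adjusted p = 0.00424), and -1.87 (adjusted p = 0.00328) without replicate 4, in which the DMSO total library had 13 counts. In an analysis of partial variance, which regresses polysome on total RNA, H3C14 stood at -0.26 and the call was lost.

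H4C14 had ratios of 0.804, 1.45, 1.11 and 1.41 with DMSO and of 0.249, 0.471, 0.213 and 0.290 with cercosporamide, also without overlap. It fell by 1.95 on the log2 scale (SE 0.52, adjusted p = 0.0123), on a depth of 1 to 65 counts per library. H4C3, the deepest member, fell by 0.90 (SE 0.29, adjusted p = 0.0324), with -1.72, -1.29, 0.14 and -0.72 in the 4 replicates. Its ratios with cercosporamide were 0.0957, 0.191, 0.297 and 0.165, so that replicate 3 did not share the direction. The call was lost without replicate 1, without replicate 2, with the length correction and in the analysis of partial variance.

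**Figure D4:**
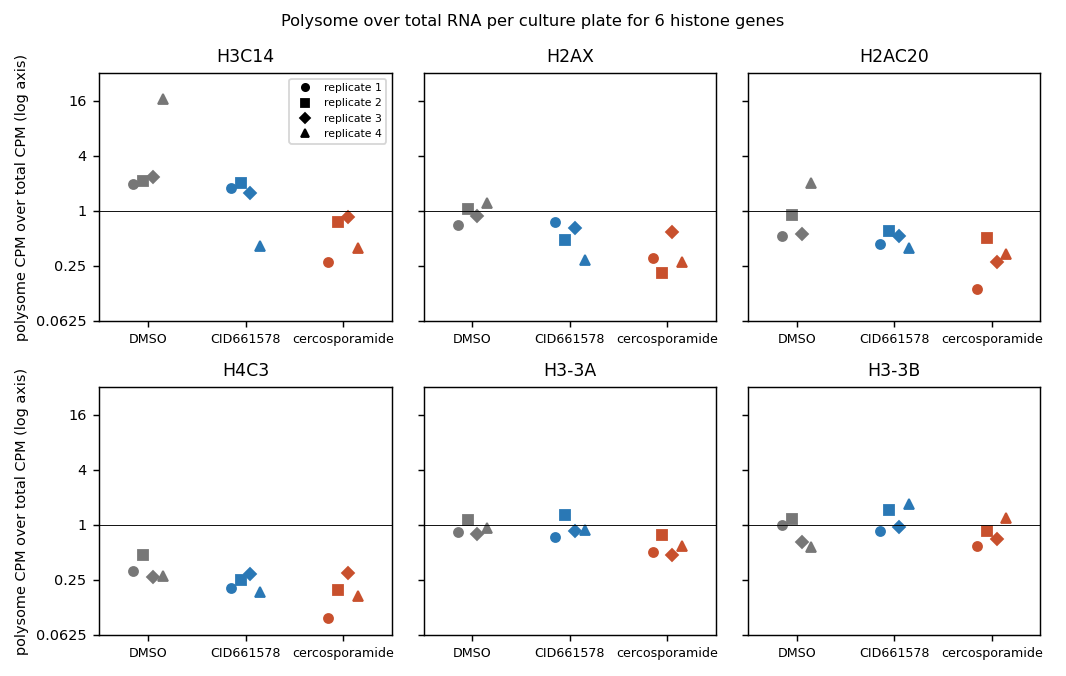
Ratio of polysome to total CPM in each plate (log axis; marker shape gives the replicate) for H3C14, H2AX, H2AC20, H4C3, H3-3A and H3-3B with DMSO, CID661578 or cercosporamide. The ratios of H3C14, H2AX, H2AC20 and H3-3A with cercosporamide lie below those with DMSO without overlap, and those of H3-3B overlap. The share of all genes whose ratios did not overlap was not counted.

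Among the variants, H2AX, H3-3A and H2AJ fell. H2A.X is the form of H2A that is phosphorylated around DNA breaks, and H2AX is the variant whose mRNA also carries the stem-loop. Its ratios were 0.700, 1.06, 0.870 and 1.21 with DMSO and 0.303, 0.208, 0.579 and 0.276 with cercosporamide, without overlap, and the TE change was -1.59 ± 0.33 (adjusted p = 0.00244). It was called under 17 of 17 alternatives. Leaving H2AX out of the variants gave a median of -0.36 for the class.

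The genes H3-3A and H3-3B encode the same H3.3 protein from different mRNAs, and their values are given side by side. H3-3A had ratios of 0.829, 1.14, 0.801 and 0.920 with DMSO and of 0.504, 0.777, 0.469 and 0.586 with cercosporamide, without overlap, and its TE fell by 0.67 (SE 0.22, adjusted p = 0.0356), with replicate values from -0.77 to -0.55. H3-3B had ratios of 0.999, 1.15, 0.645 and 0.573 with DMSO and of 0.579, 0.854, 0.701 and 1.17 with cercosporamide. Its replicates ranged from -0.79 to 1.04, and the fitted change was -0.02 ± 0.28 (95% interval -0.60 to 0.56; adjusted p = 0.976). The difference between these genes was not tested.

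H2AJ, the gene of H2A.J, stood at -0.60 ± 0.27 (adjusted p = 0.132) and was called under 8 of 17 alternatives. H2AZ2 (-0.38 ± 0.25), H2AZ1 (-0.36 ± 0.28), which encode the H2A.Z proteins found at promoters, and MACROH2A1 (-0.01 ± 0.26), which encodes a variant enriched in silent chromatin, were not called.

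The count of members that fell was lower with corrections for GC content or transcript length. Transcript GC content and the TE change with cercosporamide correlated with r = -0.51 over 11505 genes, and with r = -0.43 over the 34 replication-dependent members. The trend was not particular to cercosporamide, since r was -0.54 with CID661578 over the same 11505 genes. When each library's trend on GC content was removed, 20 members fell (17 replication-dependent and 3 variants) and the replication-dependent median became -0.75, while 11.7% of all genes fell. With a correction for transcript length, 14 fell (13 and 1), with a median of -0.62, beside 12.6% of all genes. The part of GC content and length in the falls was not tested further. Of the replication-dependent genes, 7 of 8 on chromosome 1 and 14 of 26 on chromosome 6 fell, and the chromosome 1 members had the higher median GC content, 62.1% against 57.8%. The chromosome 1 count and median include the pairs H3C14 and H3C15, and H2AC18 and H2AC19, each close to 1 measurement. Depth also moved with the calls: 13 of 17 members with a median of at least 100 counts fell, and 8 of 17 below it.

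**Figure D5:**
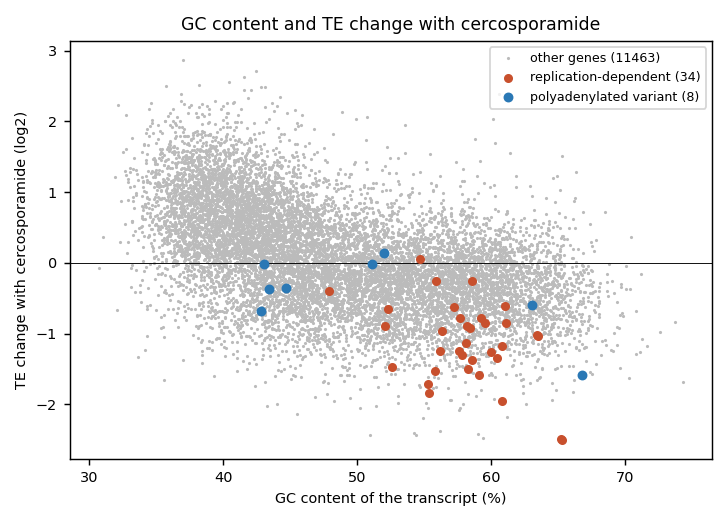
TE change with cercosporamide (log2, vertical axis) against transcript GC content in percent (horizontal axis) for 34 replication-dependent histone genes, 8 variants and 11463 other genes. The replication-dependent genes lie mostly at higher GC content and below 0, within a downward trend over all genes (r = -0.51).

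With CID661578, no member was called for TE, where 0.207% of all genes tested were, 0.00829% higher and 0.199% lower. These are 25 genes. With its own test, anota2seq, the study reported many more mRNAs of altered TE that both compounds shared. The share here was also low with the DESeq2 test (0.199% higher and 0.249% lower) and in the analysis of partial variance (0.124% and 0.191%). The reason for the difference from the study was not tested. At an unadjusted p below 0.05, 10 members were lower and 1, H2BC4, was higher (0.83 ± 0.39, adjusted p = 0.541). The share of all genes at this unadjusted threshold is not given here, so these counts are not read as a result about the members. DESeq2 also called none. The fitted change was negative for 29 of 42 members, and 13 of 34 replication-dependent members were lower and 1 higher in 4 of 4 plates. The share of all genes with the same sign in every plate was not counted here either. The median over the replication-dependent members was -0.69, but their replicate medians were -0.11, -0.37, -0.23 and -1.15, so that replicate 4 stood apart, and without it the median was -0.29. In the analysis of partial variance it was -0.18, and with the GC correction it was -0.47. The variants had a median of 0.17 and all genes tested 0.03.

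The member with the lowest p with CID661578 was H1-4, at -1.10 ± 0.36 (adjusted p = 0.487). H2AX had ratios of 0.753, 0.479, 0.642 and 0.290, which overlapped those with DMSO, and a change of -0.88 ± 0.32 (adjusted p = 0.489; -1.21 with adjusted p = 0.118 without replicate 1). H3C14 had ratios of 1.78, 2.03, 1.58 and 0.410, and its change of -1.29 ± 0.55 (adjusted p = 0.497) rested on replicate 4 (-5.24), with -0.27 without it. For H3-3A the ratios of 0.731, 1.27, 0.860 and 0.867 were close to those with DMSO, and the interval of the change was -0.45 to 0.44. H3-3B stood at 0.55 ± 0.28 (adjusted p = 0.571). With no filter on zeros, which tested 72 histone genes, 4 fell, namely H1-4, H1-5, H3C14 and H3C15, beside 0.316% of all genes.

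The difference between the TE changes of the compounds was tested directly. It was called for 8 of 42 members, all with a higher TE change with 40 µM CID661578 than with 5 µM cercosporamide, against 7.93% of all genes in that direction and 7.57% in the other (15.5% in either). Their TE changes with CID661578 against DMSO ranged from -0.26 to 0.83, none of them called. H2BC12 differed by 1.19 ± 0.24 (adjusted p = 0.00832), H2BC11 by 1.52 ± 0.41 (adjusted p = 0.0306), H4C15 by 1.28 ± 0.37 (adjusted p = 0.0413) and H2BC4 by 1.09 ± 0.42 (adjusted p = 0.119). The others were H2AC18, H2AC19, H2AZ1 (0.81 ± 0.28) and H3-3A (0.67 ± 0.22, adjusted p = 0.067). For H2AX the difference was 0.70 with an interval of 0.01 to 1.39 (adjusted p = 0.22), and for H3C14 it was 1.21 with an interval of 0.05 to 2.36 (adjusted p = 0.205), so neither was called. The count was 2, 1, 5 and 14 without replicates 1, 2, 3 and 4, and the shares of all genes in these fits are not given here.

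In total RNA no histone member was called with either compound, where few genes of any kind were. With CID661578, 0.473% of all genes tested were called, 0.307% higher and 0.166% lower, and with cercosporamide 0.0829%, 0.0498% higher and 0.0332% lower. At an unadjusted p below 0.05, 5 members were higher and 2 lower with CID661578, and 4 were higher and 1 lower with cercosporamide. These counts too have no share of all genes at the unadjusted threshold beside them. H4C3 did not pass the threshold for a call. Its CPM was 3704, 6482, 4550 and 5014 with CID661578 (4938 ± 1164) and 5297, 6094, 4767 and 5241 with cercosporamide (5350 ± 550). All 8 treated libraries were above the highest DMSO library, which held 3690 CPM, and H4C3 was the only 1 of 42 members whose groups did not overlap, with either compound. Of all genes tested, 2.01% did not overlap with CID661578 (0.713% above and 1.29% below DMSO) and 4.43% with cercosporamide (2.36% above and 2.07% below), so 1 of 42 was near the background. The log2 change was 0.70 ± 0.19 (adjusted p = 0.26) with CID661578 and 0.81 ± 0.19 (adjusted p = 0.158) with cercosporamide. DESeq2 called both, with adjusted p = 0.0366 and 0.00692.

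H3C14 stood at 0.97 ± 0.36 (adjusted p = 0.562) with CID661578 and 1.19 ± 0.36 (adjusted p = 0.248) with cercosporamide in total RNA. The medians over the replication-dependent members were 0.30 and 0.21, over the variants -0.07 and -0.06, and over all genes -0.03 and -0.05.

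In polysome RNA, 27 of 42 members fell with cercosporamide and none rose, against 16% of all genes that fell and 17.1% that rose (33.1% in either direction). They were 24 replication-dependent genes and the variants H2AX, H3-3A and H2AZ2, and all 42 fitted values were negative. The median was -0.85 over the replication-dependent members, -0.35 over the variants and -0.05 over all genes. Without the replicate term, 6 members fell, beside 6.58% of all genes that fell and 9.37% that rose. The 33 replication-dependent members other than H4C3 summed to 441, 651, 891 and 454 CPM on polysomes with DMSO and to 172, 484, 484 and 293 with cercosporamide, each lower than the DMSO library of its number.

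H2AC20 fell on polysomes from 21.2, 39.2, 91.3 and 21.8 CPM to 4.09, 24.2, 27.9 and 6.62 CPM, where the groups overlapped but each plate was lower, with a log2 change of -1.71 ± 0.27 (adjusted p = 0.000166). H3-3A went from 127, 199, 145 and 137 CPM to 62.6, 108, 95.7 and 86.1 CPM (-0.84 ± 0.17, adjusted p = 0.0014). H3-3A, H2BC12 and H2AZ2 were the 3 members whose cercosporamide and DMSO polysome values did not overlap. All 3 lay below DMSO, as did 5.73% of all genes, with 8.43% above and 14.2% in either direction, so 3 of 42 was near the background. H4C3 on polysomes was at 507, 1164, 1414 and 865 CPM, inside the DMSO range apart from replicate 1, with a change of -0.08 ± 0.22 (adjusted p = 0.832). Its fall in TE thus went with a higher level in total RNA, itself not called, and no called change on polysomes. The study's methods class a change in total RNA without one on polysomes as buffering, apart from altered TE. Genes were not sorted into these classes here.

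With CID661578, 1 of 42 members fell on polysomes, H2AX (-0.55 ± 0.20, adjusted p = 0.128), where 10.3% of all genes tested were called, 6.34% higher and 3.93% lower. H2AX was at 20.9, 48.8, 23.6 and 25.6 CPM with DMSO and at 15.1, 37.4, 21.2 and 10.9 CPM with CID661578, lower in each plate with overlapping ranges. No member was free of overlap there, where 6.75% of all genes were, 3.83% above and 2.92% below DMSO. The call was lost without the replicate term, with the GC correction, with either other filter on low counts, at an adjusted p below 0.05, and when any 1 of the 4 replicates was left out.

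The TE of genes that process, chaperone and accompany histones was read from 3 lists, first with cercosporamide, where 15.8% of all genes tested rose and 12.6% fell. Of 36 listed factors of histone mRNA processing and decay, 35 were tested, and 11 rose and 7 fell. LSM10, a U7 snRNP protein of histone pre-mRNA cleavage, fell (-1.26 ± 0.25, adjusted p = 0.00153), as did LSM4 of the decay complex (-1.18 ± 0.25, adjusted p = 0.00272), and CPSF3, the endonuclease, rose (1.43 ± 0.28, adjusted p = 0.00164). SLBP was not called, at 0.10 ± 0.32 (adjusted p = 0.86). Its total RNA was 18.3 ± 2.69 CPM (SD, n = 4) with DMSO, against 12.5 ± 1.54 for CID661578 and 13.3 ± 1.99 for cercosporamide, with log2 changes of -0.57 (adjusted p = 0.645) and -0.50 (adjusted p = 0.463).

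Of 32 histone chaperones and related genes, 9 rose in TE with cercosporamide and none fell, beside 15.8% and 12.6% of all genes. They included ANP32E, which removes H2A.Z (1.67 ± 0.24, adjusted p = 0.000143), NCL, nucleolin (1.11 ± 0.23, adjusted p = 0.00189), and NPM1, nucleophosmin (0.91 ± 0.24, adjusted p = 0.0119). Of 25 S phase genes, 7 rose and 1 fell, against the same shares of all genes, with CCNE2, cyclin E2 (2.26 ± 0.33, adjusted p = 0.000143), and RRM1 of ribonucleotide reductase (1.33 ± 0.24, adjusted p = 0.000797) among those of lowest p. In total RNA none of the 25 was called with either compound, and their summed CPM was 3022 ± 215 with DMSO, 2646 ± 342 with CID661578 and 2896 ± 240 with cercosporamide.

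With CID661578, none of the genes of these 3 lists was called for TE. The lowest p values belonged to SYMPK (-1.24), DIS3L2 (-1.19) and CPSF1 (-0.76) of processing and decay, to the chaperone genes ASF1A (1.09, adjusted p = 0.178), ANP32E (0.87) and SET (0.49), and, among the S phase genes, to CCNE2 (0.91) and CDT1 (-0.70).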

How the data were processed

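Total cytosolic and polysome-associated RNA of PANC-1 cells was sequenced in 24 libraries, 4 for each of 3 treatments and 2 fractions. The authors filtered reads, aligned them with HISAT2 to hg38 and assigned them to RefSeq genes with featureCounts. Its default settings, which they used, ignore strand and let a read that aligns to several places count for every such gene. The values are deposited by the authors as raw counts per gene, without normalization. The submitters' processing notes also name bcl2fastq 2.20.0.422 and FastQC 0.11.8.

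As in the study, only the 12058 genes with no 0 in any library were kept. Counts were scaled with TMM and tested by quasi-likelihood F-tests in edgeR 4.0.16 (R 4.3.3), with Benjamini-Hochberg adjustment over all genes tested. Calls needed an adjusted p below 0.15 and more than a 1.2-fold change. The study's methods use this adjusted p, and the fold limit for TE only. It was applied to every comparison here. The TE fit used all 24 libraries (6 residual and 18.3 prior degrees of freedom), with plate, replicate by fraction and compound by fraction as terms. Each fraction was fitted with replicate and treatment, and the 8 DMSO libraries with plate and fraction. The script was tested on simulated counts with 200 changed genes. Ratios per plate are of CPM scaled to TMM library sizes, and replicate values are on log2 CPM with a prior count of 1.

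Libraries were grouped by their titles. The study's methods use the replicate number as a batch, and a plate's fractions share a lysate. Deviations from the group mean correlated between each treated library and the DMSO library of its number with r from -0.02 to 0.57 over genes, above 0.1 in 13 of 16 cases, and no pair of libraries agreed within sampling noise (lowest chi-square per degree of freedom 14.4). Depth, from 1592459 to 12184749 reads per library, limits the precision of members with low counts. The p-values rest on the spread between replicate plates and, for the larger part, on a spread shared over genes. The TE fit had 6 residual and 18.3 prior degrees of freedom. The fit of polysome against total RNA with DMSO had 3 and 36.1. In that comparison the adjusted p of H4C3 in edgeR was 7.54e-10, and 0.00201 without the plate term. For H3C14 it was 1.19e-05 in edgeR and 0.0157 with the DESeq2 test. Small p-values should thus be read with the ratios of the single plates.

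Gene models, GC content, lengths and stem-loops came from GRCh38 and GENCODE v44, with 42 of 42 members matched by symbol. GC content and length were known for 95.4% of genes tested, and their trend was removed with a natural spline of 5 degrees of freedom per library. The histone stem-loop and AATAAA were searched on the mRNA strand only, and no overlap of these motifs is possible. Members and lists were chosen with earlier results of these data known. Named with values were every variant, the most and next most abundant replication-dependent member of each family, the called members of lowest p, the highest and lowest with DMSO and, for the other lists, the 3 genes of lowest p, but 1 variant and 1 S phase gene of these are counted and not reported here. H1-3, H1-4, H2AC6, H2AC11, H2AC12, H2AC18, H2BC4, H2BC11, H2BC17, H3C2, H4C11, H4C12 and H4C14 were added to these once their values were known. The alternatives tried were DESeq2 1.42.0 and its size factors, other TMM sets and filters, no replicate terms, a threshold of 0.05, a partial variance analysis written from the published account of anota2seq, GC and length corrections, members of the same protein summed, and each replicate left out. The polysome and total fits without the shallow cercosporamide replicate 4 were added after the data were seen.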

Additional observations from a re-analysis of the deposited data

Results flagged for a closer look

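In 8 of 99 groups of 4 replicates of the values described above, 1 replicate lay far from the other 3 (gap over range above 0.829, Dixon's 95% limit for 4 values), where chance gives about 1 in 20. For the replication-dependent members summed, the ratio of polysome to total CPM with DMSO was 0.555 in replicate 2 and 0.387 to 0.411 in the others.

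H3C14 and H3C15, which share their reads, gave 4 of the 8. In replicate 4 the log2 difference of polysome from total RNA with DMSO was 3.97 for H3C14 and 3.96 for H3C15, and the TE change with CID661578 was -5.24 and -5.22. The DMSO total library of replicate 4 held 13 counts of each gene.

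For the linker histone genes, H1-2 stood at -1.48 for the TE change with CID661578 in replicate 4 and H1-5 at -2.10 for the TE change with cercosporamide in replicate 1. H4C15 stood at 0.46 for polysome against total RNA with DMSO in replicate 2, with the other replicates below 0.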

How the results depend on the processing

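Of 792 values of single genes under the alternatives, 710 kept their direction and side of the threshold, 35 lost a call, 16 gained one and 31 turned sign. The cause of these changes was not tested. Without the replicate block (the pairing by replicate number), polysome calls were 6 with cercosporamide and 0 with CID661578, and calls for polysome against total RNA with DMSO were 8; the block changed no other count by more than 1.5 times. With each replicate left out, calls ranged as follows. They were 0 to 1 for TE with CID661578, 16 to 24 for TE with cercosporamide and 1 to 14 for the difference between compounds. They were 0 to 1 in total RNA with either compound, 0 to 4 on polysomes with CID661578, 19 to 27 with cercosporamide, and 13 to 22 for polysome against total RNA with DMSO. Of all genes, 0.0995% to 2.06% then fell in TE with CID661578 (0% to 0.813% rose), and 6.37% to 13.9% with cercosporamide (8.66% to 13.8% rose). On polysomes with cercosporamide, 10.3% to 14% fell and 12.6% to 14.7% rose. With DMSO, 22.4% to 29.3% were higher on polysomes and 25.4% to 28.3% lower. Shares for the other counts of this section are given above or not given here. With the GC correction, calls were 13 for the difference between compounds, 1 and 4 in total RNA with CID661578 and cercosporamide, and 0 on polysomes with CID661578, and the replication-dependent median of TE with cercosporamide was -0.75. With the length correction, calls were 14 for TE with cercosporamide, 2 for the difference, 3 on polysomes with CID661578 and 27 for polysome against total RNA with DMSO, and the medians were -0.62 for replication-dependent TE with cercosporamide and 0.71 and 0.15 for the classes with DMSO. At an adjusted p of 0.05 the difference kept 3 calls and polysomes with CID661578 had 0, and with members of the same protein summed the difference had 5. With no filter on zeros, TE with CID661578 had 4 calls, total RNA 1 and 3, and polysomes with CID661578 0, and with filterByExpr total RNA had 1 with each compound. DESeq2 called 1 and 3 in total RNA and 2 on polysomes with CID661578, and its size factors, like TMM without mitochondrial genes, gave 1 in total RNA with cercosporamide. Without cercosporamide replicate 4, polysomes with CID661578 had 4 calls.

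For TE with CID661578 the values that turned sign were H2AJ 0.14, H2AZ2 -0.035, H2AC19 0.21 and H2BC5 0.084 with the GC correction, H3-3A 0.031 and H2BC5 0.034 with the length correction, and H3-3A 0.015 with TMM within each fraction. In the partial variance analysis they were MACROH2A1 -0.13, H2BC12 -0.091, H4C3 0.045, H3C15 0.41 and H3C14 0.43. For TE with cercosporamide they were MACROH2A1 0.21 with the GC correction, H1-5 0.13 and H2BC5 -0.11 in partial variance, and H2BC5 -0.025 with DESeq2 size factors, -0.031 with the DESeq2 test, -0.016 with no filter and -0.07 without cercosporamide replicate 4. For polysome against total RNA with DMSO, the length correction gave H2AJ 0.28 and H2BC12 0.35. With replicates left out, TE with cercosporamide ranged from -0.37 to 0.24 for H3-3B, -0.29 to 0.16 for MACROH2A1 and -0.14 to 0.23 for H2BC5, and TE with CID661578 from -0.074 to 0.057 for H3-3A, -0.19 to 0.081 for H2BC5 and -1.25 to 0.11 for H3C3. Depth limits the members with few counts, above all in the polysome library of cercosporamide replicate 4.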
